A study of Mus musculus with 4 samples.

Results

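The 10 genes described here carry vascular endothelial growth factor (VEGF) and angiopoietin signalling. They are the VEGF ligands Vegfa, Vegfc and Vegfd, the VEGF receptors Kdr, Flt1 and Flt4, the angiopoietins Angpt1 and Angpt2, and the receptors Tek and Tie1. They were taken by name from the 32286 genes of the count tables and not by a cut on measured levels, although earlier results of these data were known. VEGF-A acts on endothelial cells mainly through the receptor encoded by Kdr, while the product of Flt1 binds VEGF-A tightly and holds it back. VEGF-C and VEGF-D act through the product of Flt4, the receptor that guides lymphatic vessels. Angiopoietin-1 activates the receptor encoded by Tek and keeps vessels quiescent, angiopoietin-2 is its context-dependent antagonist, and Tie1 is a partner of Tek with no ligand of its own among these genes.

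The cells came from the lungs of 2 wild-type (WT) and 2 Tubb3-/- mice, aged 8 to 11 weeks and taken 14 days after 0.8 U/kg bleomycin was given into the trachea of every mouse, so all values describe injured lung and no untreated lung was compared. The Tubb3-/- mice were homozygous for a Cre cassette placed at the start codon of Tubb3, the gene of β-III tubulin, and the WT mice were their littermates; the gene was lost in every cell type, so a difference in one lineage cannot be assigned to that lineage's own Tubb3. From each mouse a suspension of whole lung cells, depleted of red cells, and a suspension of mesenchymal cells were tagged by mouse and pooled by kind. The 2 pools were then sorted, the whole-cell pool for live cells. From the mesenchymal pool, mural and non-mural cells were sorted and mixed in equal parts to enrich mural cells. The counts of each pool were split by mouse through the tags. This gave 8 sets of counts, called libraries here. The mouse was the replicate, with 2 mice a genotype.

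Each cell was placed in a lineage by a single gene: Ptprc for immune, Cdh5 for endothelial, Epcam for epithelial, Higd1b or Myh11 for mural and Pdgfra for fibroblast cells. A cell with at least 1 unique molecular identifier (UMI, a counted transcript) of 1 gate and none of the others was kept, which left 4539 immune, 2401 endothelial, 416 epithelial, 5522 mural and 4530 fibroblast cells of the 30083 that passed the quality limits. Cells that matched several gates, 38.5% of all, were dropped, with 36.3% and 37.9% lost in WT and 40.1% and 39.5% in Tubb3-/- mice. Levels are CPM, the UMIs of a gene scaled to the UMIs of all genes in the summed cells of 1 mouse, and they are given in the order WT 1, WT 2, Tubb3-/- 1, Tubb3-/- 2 unless stated otherwise. They compare a gene between cells and mice, not genes with each other.

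The labels held in the targeted gene and in the markers. In whole-cell libraries Tubb3 was at 1.93 and 0.868 CPM (WT) against 0.262 and 0.321 CPM (Tubb3-/-), and in mural-enriched libraries at 5.49 and 3.67 against 0.789 and 0.680 CPM. The 8 libraries held 41462258 to 95036340 gene UMIs, and their median was 9186 to 13321 UMIs a cell in WT and 11484.5 to 16299 in Tubb3-/- libraries. No barcode was shared within a pool, which follows from the split by tags, and each pair of libraries from different pools shared 1 to 9. Xist, a transcript of the inactive X chromosome, was at 17.6 to 22.6 CPM in replicate 1 and at 632 to 649 CPM in replicate 2 of both genotypes. Ddx3y, a gene of the Y chromosome, lay the other way, at 86.4 to 141 CPM in replicate 1 and 3.34 to 7.95 CPM in replicate 2. Each genotype thus held 1 mouse of each pattern. Of the endothelial cells, 73 to 141 a mouse came from the mural-enriched suspensions, which had been depleted of CD31+ cells. The summed level of 5 endothelial markers was 5698 to 7010 CPM in the Cdh5 cells and at most 116 CPM in the other 4 lineages. Alveolar type 2 markers, which endothelial cells should lack, summed to 321 to 756 CPM in the Cdh5 cells against 92283 to 181008 CPM in type 2 cells. The parts of RNA carried over between droplets and of remaining doublets in this level were not tested. The mural gate held mostly smooth muscle: its 4 smooth muscle markers summed to 17285 to 22137 CPM and its 4 pericyte markers to 376 to 597 CPM.

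Ligands and receptors lay in different lineages. All 5 receptors were highest in endothelial cells, with no overlap with the next lineage in any mouse, whereas the ligands were spread over epithelial, endothelial, fibroblast and mural cells. With 4 mice, an exact paired test between lineages cannot give a two-sided p below 0.125, so these levels are described by their ranges without a test. A sum over a lineage also cannot tell fewer cells of a subtype from less RNA in each cell.

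**Figure D1:**
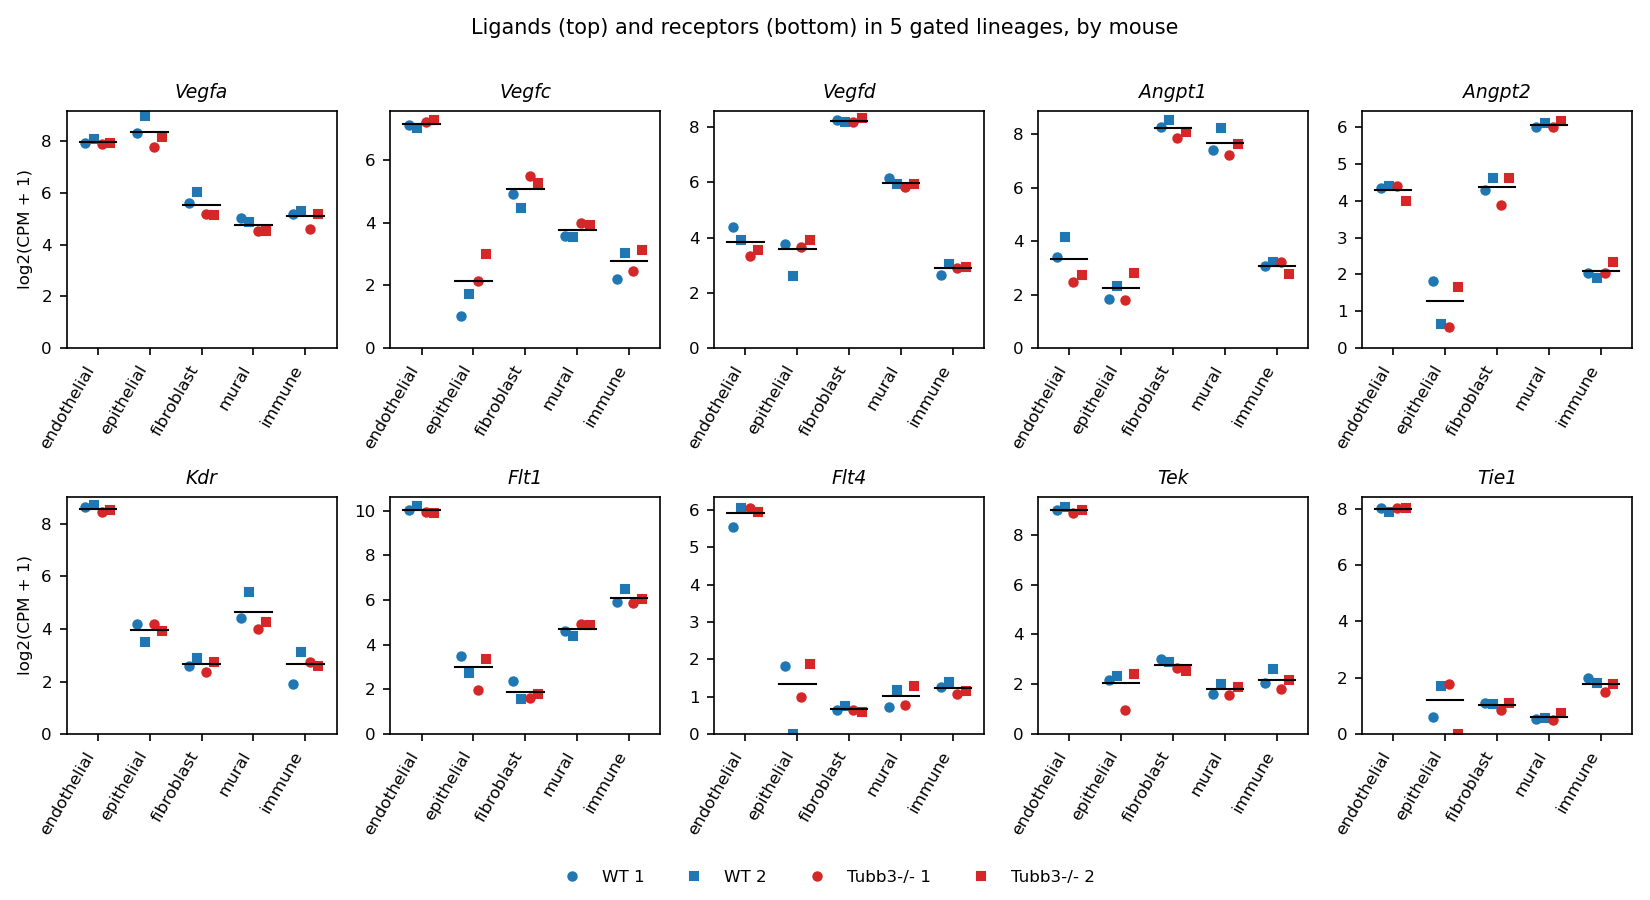
Levels of the 5 ligands (top row) and 5 receptors (bottom row) as log2(CPM + 1) in 5 gated lineages. Points are mice, blue for WT and red for Tubb3-/-, and each bar is the mean CPM of the 4 mice on the same scale; the receptors peak in endothelial cells and the ligands do not share a source.

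Among the receptors, Kdr (VEGF receptor 2) was at 393, 413, 350.3 and 363 CPM in endothelial cells, 16.0 times its mean in mural cells. Flt1 (VEGF receptor 1) was at 1058, 1181, 992 and 954 CPM there. It stood at 59.4, 88.2, 57.8 and 66.1 CPM in immune cells, above the 20.2 to 29.7 CPM of mural cells in every mouse. Flt1 was thus the only receptor of the 5 whose second lineage was immune cells at more than 10 CPM. Flt4 (VEGF receptor 3) was at 45.8, 65.3, 64.6 and 60.5 CPM in endothelial cells and at 2.69 CPM or less in every other lineage and mouse. Tek was at 504, 558, 471 and 507 CPM in endothelial cells, 86.5 times its mean in fibroblasts, the next lineage. Tie1 was at 257, 236, 258 and 260.1 CPM in endothelial cells and at 2.97 CPM or less elsewhere. Below the endothelial level, the order of the other lineages was mostly not resolved: for Flt4 and Tek, the ranges of every pair of neighbours overlapped.

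Among the ligands, Vegfa was at 316, 493, 218 and 281 CPM in epithelial cells and at 242, 267, 234 and 239 CPM in endothelial cells. These ranges overlapped, and both lay above those of the fibroblast (34.3 to 63.4 CPM), immune (22.9 to 38.4 CPM) and mural (21.9 to 31.5 CPM) cells. Vegfc was highest in endothelial cells, at 136, 128, 146 and 152 CPM, then in fibroblasts at 29.3, 21.0, 43.7 and 37.7 CPM, then in mural cells at 10.7 to 14.9 CPM, with no overlap between these lineages. Vegfd (Figf in older annotations) was a fibroblast transcript, at 303, 287, 290.4 and 316 CPM, and mural cells came next at 55.8 to 69.9 CPM. Both lymphangiogenic ligands were therefore found in mesenchymal cells, and Vegfc was at a higher level in endothelial cells.

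Angpt1 was at 307, 371, 231 and 269 CPM in fibroblasts and at 169, 294, 147 and 195 CPM in mural cells. The ranges of these lineages overlapped, and the next, endothelial cells, reached only 16.7 CPM. Angpt2 was highest in mural cells, at 63.0, 67.3, 62.4 and 70.8 CPM, above fibroblasts at 13.6 to 23.7 CPM and endothelial cells at 14.9 to 20.2 CPM, whose ranges overlapped. The antagonist was thus at a higher level in the mural sum, which was mostly smooth muscle, than in the sum of endothelial cells.

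The lung's capillary bed holds aerocytes, wide flat cells that line the air interface, and general capillary cells, and within Cdh5 cells these were taken by Ednrb and by Gpihbp1. A further subset was taken by Prox1, the master regulator of lymphatic identity. Cells with exactly 1 of the 3 genes gave 30 to 48 Ednrb cells, 256 to 510 Gpihbp1 cells and 3 to 11 Prox1 cells a mouse. The names held in markers fixed for them. Aerocyte markers summed to 2961 to 4490 CPM in Ednrb cells against 103 to 146 CPM in Gpihbp1 cells, general capillary markers to 100.0 to 782 against 2779 to 4254 CPM, and lymphatic markers to 5398 to 11626 CPM in Prox1 cells against 421 to 942 CPM in Gpihbp1 cells.

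Ednrb cells carried much more Kdr and much less Tek than Gpihbp1 cells. Kdr was at 1538, 2305, 1646 and 1637 CPM in Ednrb cells and at 175, 227, 187 and 216 CPM in Gpihbp1 cells, and every mouse was higher in the former. The difference was 3.15 ± 0.12 on the log2 scale (estimate ± SE, edgeR, mouse as a block, adjusted p = 1.56e-10), or 8.86-fold. Tek moved the other way, at 122, 28.6, 98.0 and 153 CPM against 636, 684, 553 and 591 CPM, which gave -2.58 ± 0.24 (adjusted p = 1.92e-06). The ligands Vegfa and Vegfc were low in Ednrb cells as well. Vegfa was at 44.3, 4.76, 28.4 and 107 CPM against 306, 307, 281 and 291 CPM (-2.69 ± 0.32, adjusted p = 2.02e-05). Vegfc was at 77.4, 4.76, 33.5 and 26.8 CPM against 148, 155, 175 and 159 CPM (-2.13 ± 0.32, adjusted p = 0.000152).

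In all, 4 of the 9 members tested differed between these capillary cells, 1 higher and 3 lower in Ednrb cells, where 24.4% of 8743 genes passed the same threshold of an adjusted p under 0.05. Flt1 was at 1153 to 1343 CPM in Ednrb and 993 to 1283 CPM in Gpihbp1 cells, and Flt4 at 57.1 to 70.1 against 39.8 to 65.7 CPM. Neither passed the test (adjusted p = 0.162 and 0.187). Tie1, the partner of Tek, was lower in Ednrb cells in all 4 mice, at 129 to 261 against 271 to 303 CPM (-0.39 ± 0.16, adjusted p = 0.0862). Under an alternative gate, which asked for at least 80% of a cell's gate UMIs and was chosen after seeing the data, Flt4 and Tie1 were called (adjusted p = 0.00159 and 0.0130), and Tie1 with no filter on low counts as well (adjusted p = 0.00463). Vegfd and Angpt2 gave adjusted p = 0.796 and 0.149, and Angpt1, at 7.65 to 14.8 CPM in Ednrb cells, had too few counts to be tested. WT 2, whose Ednrb cells had the lowest general capillary markers (100.0 CPM against 552 to 782 CPM in the others), also had the highest Kdr and the lowest Vegfa, Vegfc and Tek there, and how much of the spread between mice moved with that was not tested.

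To set beside each other a receptor that was higher and one that was lower in Ednrb cells, the 250 bases before the annotated start of each are shown, from RefSeq on GRCm38.p6, read 5′ to 3′ on the gene's strand. Capitals mark the matches, on either strand, to the letters CCGGAA (the core of an ETS factor site), AACAAT (a SOX factor site), and GCGTG or ACGTG (the core of a hypoxia-inducible factor site). Kdr lies at chr5:75978456-75978705 on the minus strand and Tek at chr4:94739039-94739288 on the plus strand.
Kdr: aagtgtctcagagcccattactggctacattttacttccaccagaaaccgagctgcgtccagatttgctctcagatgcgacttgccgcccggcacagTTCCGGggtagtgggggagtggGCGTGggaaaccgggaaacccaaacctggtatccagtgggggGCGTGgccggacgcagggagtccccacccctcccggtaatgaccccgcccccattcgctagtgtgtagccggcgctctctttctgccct
Tek: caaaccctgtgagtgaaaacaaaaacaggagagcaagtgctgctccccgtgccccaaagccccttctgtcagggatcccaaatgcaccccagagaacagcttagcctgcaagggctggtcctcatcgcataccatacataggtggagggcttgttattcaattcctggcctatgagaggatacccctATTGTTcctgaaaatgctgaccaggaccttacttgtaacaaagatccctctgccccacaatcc

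The Kdr window held 1 match to CCGGAA, beginning 153 bases before the start, and 2 to GCGTG, at 131 and 89 bases, and the Tek window held 1 match to AACAAT at 63 bases. Such letters are common: of 32851 promoter windows of the same length, 12.0% held CCGGAA, 9.42% AACAAT, 28.2% GCGTG and 16.6% ACGTG. Of the 8 members with a window in the table, GCGTG also occurred in those of Flt1 and Vegfa and ACGTG in that of Vegfa. The matches describe the sequence and were not tied to binding in these cells.

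Prox1 cells were marked by Flt4 and Angpt2. Flt4 was at 216, 574, 459 and 772 CPM, from 4, 15, 59 and 92 UMIs, against 39.8, 65.7, 40.8 and 45.1 CPM in Gpihbp1 cells, and all 4 mice lay above every Gpihbp1 value (3.24 ± 0.35, adjusted p = 1.56e-18). Angpt2 was at 539.8, 191, 233 and 168 CPM, from 10, 5, 30 and 20 UMIs, against 8.505 to 22.5 CPM (4.05 ± 0.41, adjusted p = 3.98e-21). Vegfa, Flt1, Vegfc and Tek were lower in Prox1 cells, with differences of -2.81 ± 0.46, -1.93 ± 0.30, -1.64 ± 0.45 and -1.43 ± 0.32 (adjusted p = 3.4e-08, 7.76e-09, 0.00343 and 0.000194). That made 6 of the 8 members tested, 2 higher and 4 lower, against 13.1% of 8226 genes. Kdr, at 229 to 512 CPM, and Tie1, at 216 to 344 CPM, did not pass (adjusted p = 0.226 and 0.646), although Kdr was called as higher in Prox1 cells without WT replicate 2 and with no block for the mouse (adjusted p = 0.0451 and 0.0273). Only 29 cells made up this subset, with 3 of them in WT 1, and the Vegfc call was lost without Tubb3-/- replicate 2 (adjusted p = 0.23).

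Gpihbp1 cells were also divided by Ntrk2, a neurotrophin receptor gene, at 84 to 306 cells with it and 155 to 320 without it a mouse. Angpt2 was at 5.83, 10.3, 5.11 and 6.25 CPM with Ntrk2 and at 35.5, 17.5, 19.2 and 11.3 CPM without it, lower in all 4 mice (-1.47 ± 0.30, adjusted p = 0.00607). Vegfa was slightly higher with it, at 317 to 341 against 214 to 296 CPM (0.36 ± 0.09, adjusted p = 0.0176). These were 2 of 10 members tested, against 5.24% of 10261 genes, and neither call held in DESeq2 (adjusted p = 0.0517 and 0.0572). Angpt2 lost its call without WT replicate 1 (adjusted p = 0.053) and Vegfa without Tubb3-/- replicate 1 or 2 (adjusted p = 0.186 and 0.0998).

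**Figure D2:**
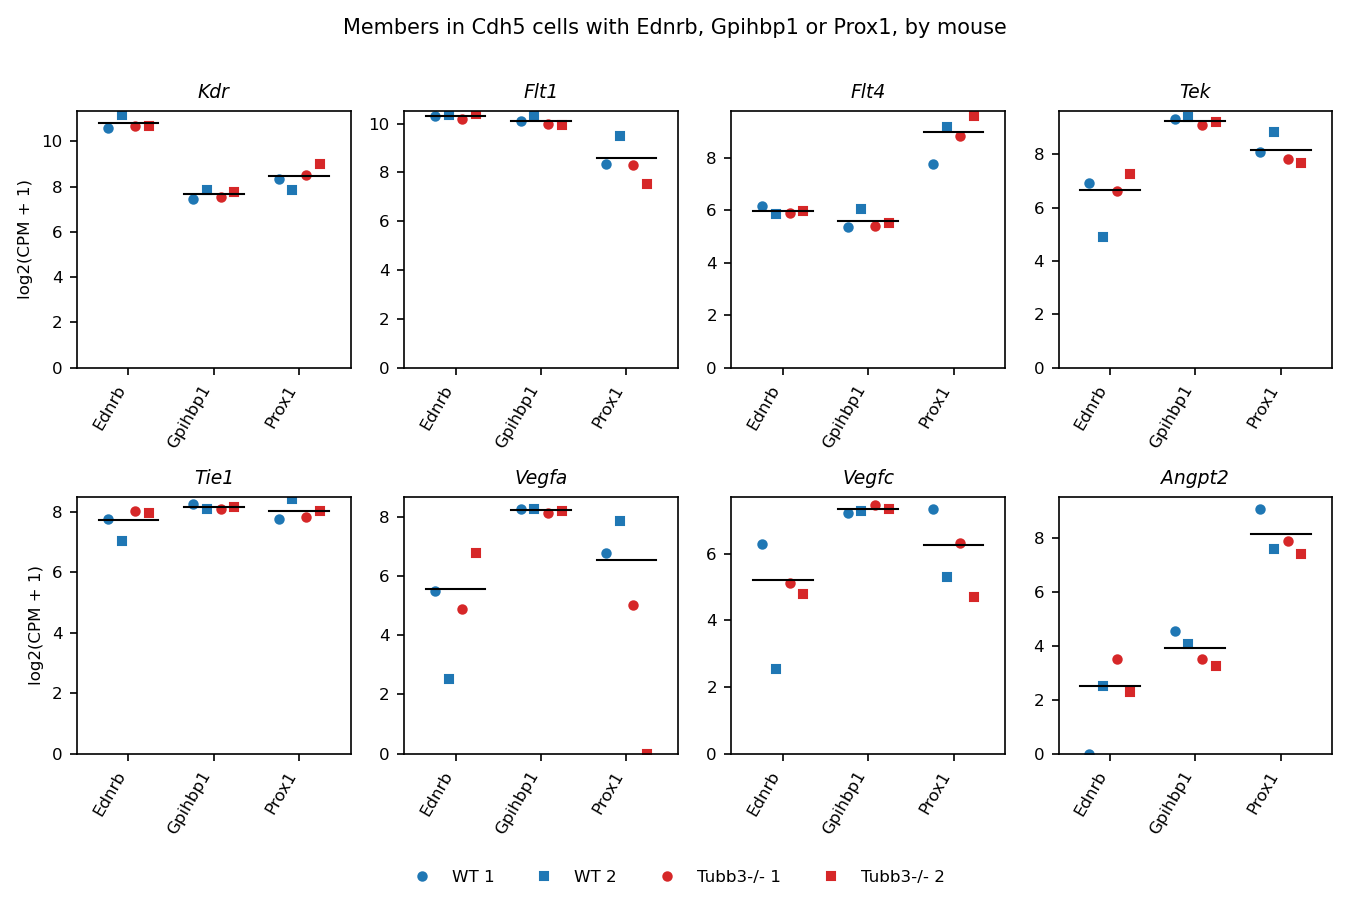
Levels of 8 members as log2(CPM + 1) in Cdh5 cells with Ednrb, Gpihbp1 or Prox1. Points are mice, blue for WT and red for Tubb3-/-, and bars are the mean CPM of the 4 mice; Kdr is higher and Tek, Vegfa and Vegfc lower in Ednrb than in Gpihbp1 cells, and Flt4 and Angpt2 are highest in Prox1 cells.

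In the epithelium, Vegfa belonged to alveolar type 1 cells, the thin cells of gas exchange. Epcam cells with Rtkn2 (19 to 28 a mouse) had type 1 markers at a summed 9856 to 16404 CPM, and those with Lamp3 (22 to 41 a mouse) had type 2 markers at 92283 to 181008 CPM. Vegfa was at 1251, 1723, 799 and 815 CPM in the Rtkn2 cells and at 128, 71.2, 149 and 134 CPM in the Lamp3 cells, with every mouse far apart. The difference was -2.82 ± 0.32 (adjusted p = 0.000176), where 21.2% of 6282 genes passed, and Vegfa was the 1 member with enough counts to be tested. The remaining members were at or near 0 in these cells: Flt4 and Tie1 had no UMI in the Rtkn2 cells of any mouse, and a count of 3 there would be 7.51 to 9.09 CPM.

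Fibroblasts were divided into those with Npnt, a gene of alveolar fibroblasts (508 to 681 cells a mouse), those with Pi16, a gene of adventitial fibroblasts around larger vessels and airways (50 to 104 cells), and those with Cthrc1, a gene of matrix-producing fibroblasts in fibrosis (6 to 29 cells). Cells with several of these genes, 305 to 545 a mouse, were in none of the groups. They numbered 1702 in all against 58 with Cthrc1 alone. Any cell with Cthrc1 that also held Npnt or Pi16 was thus left out. Among these fibroblast groups, Angpt1 and Vegfd were highest in the Npnt cells. Angpt1 was at 398, 426, 306 and 344 CPM in Npnt cells, 117, 127, 114 and 139 CPM in Pi16 cells and 112, 48.5, 67.4 and 64.1 CPM in Cthrc1 cells. It was lower, at -1.46 ± 0.11 in Pi16 cells (adjusted p = 3.24e-07) and -2.27 ± 0.23 in Cthrc1 cells (adjusted p = 1.28e-14). Vegfd was at 317 to 343 CPM in Npnt cells, 199.7 to 271 CPM in Pi16 cells (-0.43 ± 0.11, adjusted p = 0.00766) and 32.4 to 171 CPM in Cthrc1 cells (-1.97 ± 0.24, adjusted p = 1.75e-11). The smaller of these differences, in Pi16 cells, gave an adjusted p of 0.057 without WT replicate 1.

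Vegfc ran against Vegfd. It was at 22.4, 17.0, 34.2 and 34.7 CPM in Npnt cells and at 53.0, 146, 74.9 and 72.6 CPM in Cthrc1 cells, from 9, 9, 40 and 17 UMIs, and the groups did not overlap (1.42 ± 0.28, adjusted p = 5.2e-05). In Pi16 cells it was at 24.2 to 39.7 CPM (0.44 ± 0.14, adjusted p = 0.0384), a call that ended when any single mouse was left out (adjusted p from 0.0684 to 0.186). Cthrc1 cells thus differed from Npnt cells in 3 of 8 members tested, 1 higher and 2 lower, against 10.8% of 11836 genes.

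Pi16 cells held more Tek than Npnt cells. Tek was at 25.3, 47.0, 26.2 and 18.1 CPM in Pi16 cells, from 38, 33, 35 and 18 UMIs, and at 2.45, 2.77, 2.74 and 1.91 CPM in Npnt cells (3.59 ± 0.24, adjusted p = 8.68e-08). Endothelial markers summed to 103 to 157 CPM in Pi16 cells against 34.2 to 49.9 CPM in Npnt cells, and Tie1 was at 0.749 to 4.02 CPM in Pi16 cells against 0.707 to 1.52 CPM; the part of endothelial transcripts in the Tek level was not tested. Angpt2 went down in the same cells, at 2.66, 2.85, 1.497 and 8.03 CPM against 23.0, 25.8, 17.9 and 25.9 CPM (-2.57 ± 0.30, adjusted p = 1.75e-05). Kdr, at 0.749 to 17.1 CPM in Pi16 cells, was called as lower there without WT replicate 2 (adjusted p = 0.0109), the mouse with 12 of its UMIs. Together 5 of 8 members tested differed between Pi16 and Npnt cells, 2 higher and 3 lower, against 25.0% of 12333 genes.

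Within mural cells, those with Higd1b and no Myh11 (6 to 17 cells a mouse) had pericyte markers at a summed 1827 to 3000 CPM. Those with Myh11 and no Higd1b (836 to 1439 cells) had them at 290.0 to 363 CPM. Cells with both genes, 98 to 154 a mouse, were in neither group. They numbered 537 in all against 46 with Higd1b alone, so most cells with Higd1b were left out. Angpt1 was at 446, 991, 908 and 535 CPM in the Higd1b cells, from 33, 115, 85 and 22 UMIs, and at 137, 174, 97.8 and 130.3 CPM in the Myh11 cells, higher in every mouse (2.07 ± 0.25, adjusted p = 1.57e-14). Vegfd was at 8.62 to 40.6 CPM against 59.1 to 73.1 CPM (-1.70 ± 0.50, adjusted p = 0.00792), from 1 to 3 UMIs a mouse in the Higd1b cells. That was 2 of 8 members tested, against 13.2% of 11955 genes. The Vegfd call was lost in DESeq2 and without WT replicate 2 (adjusted p = 0.113 and 0.153). Tek was at 27.0, 0, 10.7 and 48.6 CPM in the Higd1b cells, from 2, 0, 1 and 2 UMIs, and at 1.57 to 2.59 CPM in the Myh11 cells (2.61 ± 1.01, adjusted p = 0.0667). It was called as higher in Higd1b cells by DESeq2 and under the alternative gate of 80% (adjusted p = 0.0287 and 0.000153). Under that gate Flt1 was also called as higher (1.70, adjusted p = 1.72e-09) and Vegfa as lower (-1.46, adjusted p = 0.00152). Under the main gate these gave -0.29 ± 0.66 and -1.51 ± 0.73 (adjusted p = 0.873 and 0.193), so Flt1 changed sign with the gate. Kdr had UMIs in the Higd1b cells of Tubb3-/- 2 alone, and was called as lower there without that mouse (adjusted p = 0.00288). Angpt2 was at 60.1 to 67.9 CPM in Myh11 cells and at 0 to 94.6 CPM in Higd1b cells (adjusted p = 0.262), so its mural level was that of the Myh11 cells.

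**Figure D3:**
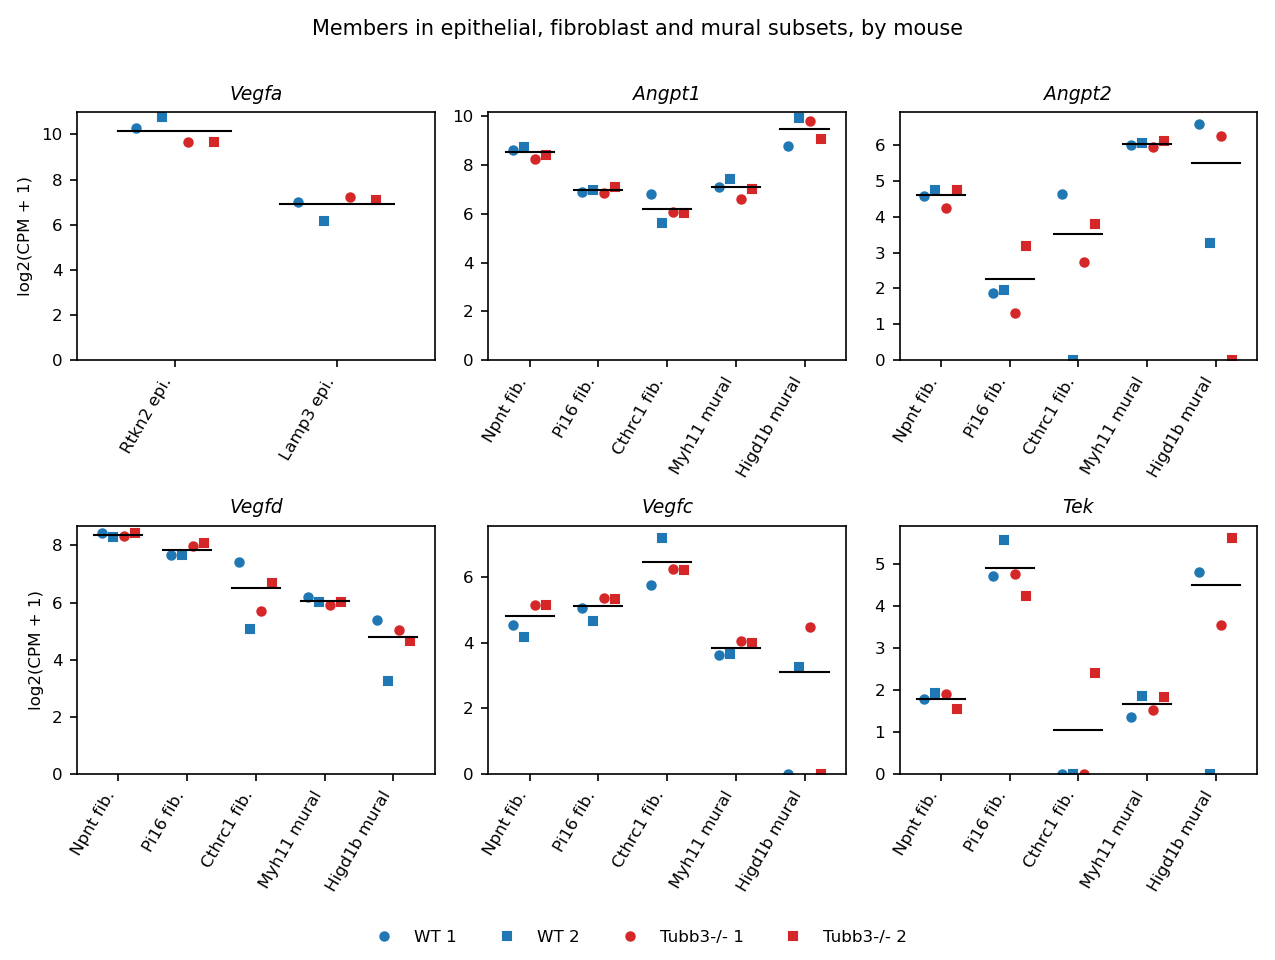
Levels as log2(CPM + 1) of Vegfa in 2 epithelial subsets and of Angpt1, Angpt2, Vegfd, Vegfc and Tek in 3 fibroblast and 2 mural subsets. Points are mice, blue for WT and red for Tubb3-/-, and bars are the mean CPM of the 4 mice; points at 0 are mice with no UMI, and the Cthrc1 and Higd1b subsets are the smallest.

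Between genotypes, no member passed the test in any of the 5 lineages. In endothelial cells 0 of 10 members were called by edgeR, where 0.0230% of 13016 genes were, in mural cells 0 of 9 against 0.0264% of 15145 genes, in fibroblasts 0 of 10, in epithelial cells 0 of 4 and in immune cells 0 of 10, each against 0% of 15263, 11275 and 14298 genes. At an unadjusted p under 0.05 the members numbered 2 in endothelial, 4 in mural, 3 in fibroblast, 1 in epithelial and 0 in immune cells, and DESeq2 called 1 member, Vegfa in fibroblasts, of all of these. Over all genes, unadjusted p-values under 0.05 numbered 1795 in endothelial, 1792 in mural, 2764 in fibroblast, 609 in epithelial and 1177 in immune cells, where DESeq2 called 153, 226, 540, 6 and 74 genes.

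The values of the genotypes did not overlap for 7 of 10 members in endothelial cells, where the same held for 45.6% of all genes tested. They did not overlap for 5 of 9 in mural cells (40.1% of genes), 4 of 10 in fibroblasts (48.0%), 1 of 4 in epithelial cells (36.6%) and 3 of 10 in immune cells (40.5%). With 2 mice a genotype such counts were high for genes in general. The median member difference was -0.12, -0.08, -0.21, -0.16 and -0.18 on the log2 scale in the same order, beside values between -0.01 and 0.01 over all genes tested.

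Vegfa was lower in Tubb3-/- than in WT mice in each lineage, with no overlap, although no difference passed the test. In fibroblasts it was at 47.1 and 63.4 CPM in WT and at 35.3 and 34.3 CPM in Tubb3-/- mice (-0.65 ± 0.13, adjusted p = 0.127). In mural cells it was at 31.5 and 28.4 against 21.9 and 22.1 CPM (-0.44 ± 0.12, adjusted p = 0.238), and in epithelial cells at 316 and 493 against 218 and 281 CPM (-0.74 ± 0.26, adjusted p = 0.853). In immune cells the difference was -0.34 ± 0.20 and in endothelial cells -0.09 ± 0.10 (adjusted p = 0.703 and 0.771). In fibroblasts the direction held in each pool, at 50.4 and 63.8 against 32.6 and 35.7 CPM in the whole-cell libraries and at 46.0 and 63.3 against 36.6 and 33.8 CPM in the mural-enriched ones. In mural cells the genotypes overlapped in the whole-cell libraries, at 20.3 and 24.2 against 16.4 and 21.5 CPM, and not in the mural-enriched ones, at 32.5 and 28.8 against 22.5 and 22.1 CPM. Single mice decided the side of the threshold. Without WT replicate 1, Vegfa was called in fibroblasts and epithelial cells (adjusted p = 0.00324 and 0.0425), and without WT replicate 2 it was called in mural cells (adjusted p = 0.0377); the lone WT mouse of such a fit is assumed to vary like the others. In the type 1 cells that held most epithelial Vegfa, it was at 1251 and 1723 CPM in WT and at 799 and 815 CPM in Tubb3-/- mice; they were 21.9% and 27.2% of Epcam cells in WT against 21.1% and 20.2% in Tubb3-/- mice, and this difference within the subset was not tested.

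Vegfc lay the other way, with higher estimates in Tubb3-/- mice in each lineage where it was tested, and no difference passed the test. In endothelial cells the difference was 0.19 ± 0.10 and in immune cells 0.19 ± 0.41 (adjusted p = 0.46 and 0.926). The larger estimates were in the mesenchymal lineages. In fibroblasts Vegfc was at 29.3 and 21.0 CPM in WT and at 43.7 and 37.7 CPM in Tubb3-/- mice (0.70 ± 0.21, adjusted p = 0.193). The Cthrc1 cells had more Vegfc and less Angpt1 than Npnt cells. Counted without those that also held Npnt or Pi16, they numbered 10 and 6 in WT against 29 and 13 in Tubb3-/- mice. Within Npnt cells Vegfc was also higher and Angpt1 lower in Tubb3-/- mice. The part of the subsets in these fibroblast differences was not tested. In mural cells Vegfc was at 10.9 and 10.7 against 14.9 and 14.1 CPM (0.43 ± 0.14, adjusted p = 0.295). The summed fibroblast markers of the mural cells moved with it, at 2635 and 2589 CPM in WT against 4829 and 4078 CPM in Tubb3-/- mice, and their part in it was not tested. In the whole-cell libraries alone, mural Vegfc was at 6.01 and 17.9 against 7.97 and 8.60 CPM, from 8, 17, 16 and 10 UMIs, and the estimate had the opposite sign (-0.47, adjusted p = 0.932). Without WT replicate 1 the fibroblast difference was called (adjusted p = 0.00405).

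Angpt1 was lower in Tubb3-/- fibroblasts, at 307 and 371 CPM in WT against 231 and 269 CPM (-0.42 ± 0.11, adjusted p = 0.178). Without WT replicate 1 the estimate was -0.51 there and -0.72 in mural cells. That fit sets both Tubb3-/- mice against WT 2 alone. In both of these lineages Angpt1 was higher in replicate 2 than in replicate 1 of each genotype. In endothelial cells it was at 9.48 and 16.7 CPM in WT against 4.51 and 5.64 CPM in Tubb3-/- mice, from 23 and 72 against 33 and 37 UMIs (-1.40 ± 0.33, adjusted p = 0.153), and it was called there without WT replicate 1 or Tubb3-/- replicate 2 (adjusted p = 0.0428 and 0.0481). Vegfd in endothelial cells, at 19.8 and 14.2 CPM in WT against 9.03 and 10.7 CPM in Tubb3-/- mice, gave -0.74 ± 0.25 (adjusted p = 0.264). Mesothelial markers in the same endothelial sums were at 233 and 189 CPM in WT and at 26.4 and 96.2 CPM in Tubb3-/- mice, and their part in these low values was not tested.

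The receptors differed little in endothelial cells. Kdr, Flt1, Flt4, Tek and Tie1 gave -0.16 ± 0.10, -0.19 ± 0.09, 0.17 ± 0.16, -0.10 ± 0.10 and 0.09 ± 0.11, with adjusted p from 0.442 to 0.77. In mural cells Kdr was at 20.5 and 41.3 CPM in WT and at 15.04 and 18.1 CPM in Tubb3-/- mice (-0.86 ± 0.27, adjusted p = 0.292, or 0.00246 without WT replicate 1), a lineage in which 9.54% of cells held the mesothelial gene Upk3b. In the whole-cell libraries alone it was at 3.76 and 15.8 against 6.97 and 15.5 CPM, from 5, 15, 14 and 18 UMIs, and the estimate had the opposite sign (0.20, adjusted p = 0.986). Mesothelial markers in the mural sums were at 324 and 600.1 CPM in WT and at 263 and 304 CPM in Tubb3-/- mice, and their part in the difference was not tested. Mural cells without Upk3b, a split chosen after its values were seen, had Kdr at 2.57, 4.08, 2.42 and 1.99 CPM. Flt1 in mural cells was at 23.7 and 20.2 against 29.7 and 28.5 CPM (0.40 ± 0.14, adjusted p = 0.338).

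**Figure D4:**
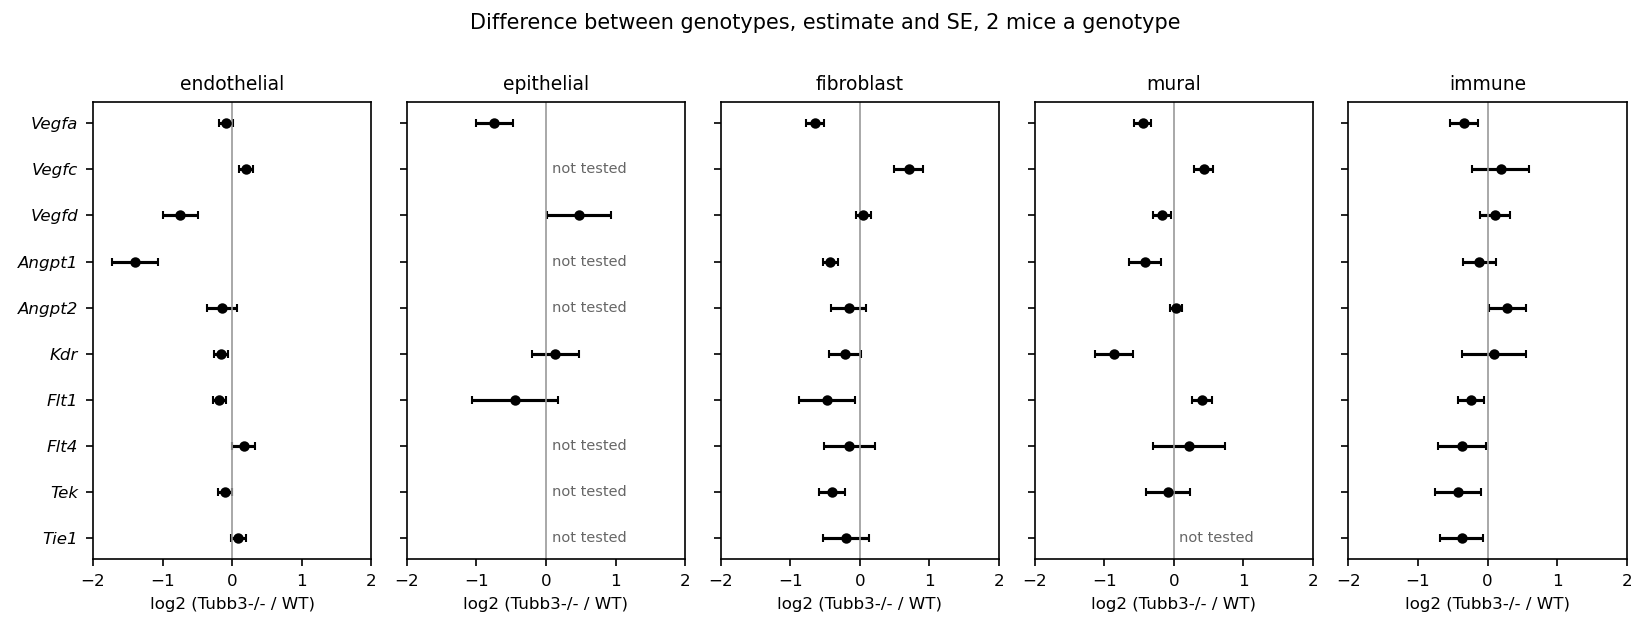
Difference between Tubb3-/- and WT mice in each member and lineage on the log2 scale, 2 mice a genotype. Points are edgeR estimates and bars their standard errors; values left of 0 are lower in Tubb3-/- mice, none passed an adjusted p of 0.05, and members with too few counts are given as not tested.

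Within the capillary subsets the result was the same. In Ednrb cells 0 of 6 members were called (0% of 5054 genes, 180 of them at an unadjusted p under 0.05 and 2 called by DESeq2), with no member at an unadjusted p under 0.05 and no overlap of the genotypes for 1 of 6 (32.3% of genes). In Gpihbp1 cells 0 of 10 were called (0.612% of 11772 genes), with 1 at an unadjusted p under 0.05 and no overlap for 7 of 10 (45.1% of genes); DESeq2 called no member in either. In Ednrb cells Tek and Vegfa were called as higher in Tubb3-/- mice when WT replicate 1 was left out (adjusted p = 0.00455 and 0.0140), which sets both Tubb3-/- mice against WT 2 alone. The member at an unadjusted p under 0.05 was Angpt2, at 22.5 and 15.8 CPM in WT and at 10.3 and 8.505 CPM in Tubb3-/- mice (-0.95 ± 0.28, adjusted p = 0.186). Cells with Ntrk2, in which Angpt2 was low, were 39.5% and 20.8% of the Gpihbp1 cells in WT and 60.0% and 53.1% in Tubb3-/- mice, and the Gpihbp1 cells held 6089 and 7195 UMIs each in WT against 9714 and 9102 in Tubb3-/- mice, a depth that itself sets how often a gene is found in a cell. Among Gpihbp1 cells without Ntrk2, Angpt2 was at 35.5 and 17.5 against 19.2 and 11.3 CPM, which overlapped, and the part of Ntrk2 cells and of depth in the difference was not tested.

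No member's genotype effect was shown to differ between lineages. The test of genotype by lineage called 0 of 10 members against 0.0498% of 18078 genes, with 2 members, Vegfd and Angpt1, at an unadjusted p under 0.05 (adjusted p = 0.562 and 0.559). The test between Ednrb and Gpihbp1 cells called 0 of 10 against 0% of 9711 genes, with no member and 342 genes at an unadjusted p under 0.05. Without WT replicate 1, Kdr was called in the first test (adjusted p = 0.0419) and Tek and Vegfa in the second (adjusted p = 0.00179 and 0.0125). DESeq2 was not run on either test.

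A list of 34 further genes of the pathway, covering other ligands and inhibitors, co-receptors, VEGF-C and VEGF-D processing, the hypoxia response, signalling targets and endothelial transcription factors, gave no call between genotypes either. It had 29 genes tested in endothelial, 28 in mural, 32 in fibroblast, 19 in epithelial and 29 in immune cells, with the smallest adjusted p, 0.0759, in fibroblasts, and 11, 5, 7, 4 and 4 genes at an unadjusted p under 0.05. Between Ednrb and Gpihbp1 cells 12 of 24 tested genes differed, 2 higher and 10 lower, beside 24.4% of all genes. Apln, the ligand of the apelin receptor, was higher in Ednrb cells by 4.39 ± 0.27 and the VEGF co-receptor Nrp1 by 1.71 ± 0.11 (adjusted p = 2.25e-08 and 5.02e-08). The transcription factor Sox17, the chemokine Cxcl12 and the apelin receptor Aplnr were lower, at -3.16 ± 0.30, -3.08 ± 0.42 and -2.61 ± 0.34 (adjusted p = 2.22e-06, 7.98e-05 and 4.67e-05). Apln and Aplnr also stood among the markers used to check these subsets. In the other comparisons within mice the list had 9 of 23 genes called in Prox1 against Gpihbp1 cells (2 higher, beside 13.1% of all genes), 6 of 27 with against without Ntrk2 (2 higher, beside 5.24%), 8 of 25 in Higd1b against Myh11 cells (4 higher, beside 13.2%), 7 of 13 in Lamp3 against Rtkn2 cells (6 higher, beside 21.2%), 5 of 23 in Cthrc1 against Npnt cells (1 higher, beside 10.8%) and 15 of 25 in Pi16 against Npnt cells (7 higher, beside 25.0%).

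The genes whose levels were most like those of a member were listed over 32 sums, the 5 lineages and 3 endothelial subsets in 4 mice, among the 9816 genes that averaged 10 CPM or more. The sums of a mouse share libraries and the endothelial subsets are part of the endothelial sum, so Pearson's r of log2(CPM + 1) is given as a description. Tek was nearest to Ptprb (r = 0.985), which encodes a phosphatase acting on its protein, then to Tal1 (0.974) and Cemip2 (0.969). Tie1 was nearest to Ccm2l (0.992), Ushbp1 (0.991) and Cyyr1 (0.989), Flt1 to Pecam1 (0.982), Ehd4 (0.967) and Clec1a (0.962), Kdr to Sema3f (0.968), Cdc42bpb (0.957) and Myzap (0.954), and Flt4 to Ipo11 (0.968), Elk3 (0.946) and Rgl2 (0.945). Vegfd was nearest to Mdk (0.956), Fgf2 (0.953) and Fam20a (0.945), and Angpt1 to Ism1 (0.954), Tnfaip6 (0.946) and Palld (0.943). The nearest genes were less close for Vegfc (Jam2 0.918, Nxpe4 0.893, Heg1 0.890), Angpt2 (Emid1 0.907, Galnt15 0.877, Nxn 0.865) and Vegfa (Tox3 0.823, Hibadh 0.807, Lap3 0.796).

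In the GENCODE annotation of the files' build, mm10, Vegfa (ENSMUSG00000023951) lies at chr17:46016993-46032369, Vegfc (ENSMUSG00000031520) at chr8:54077606-54187096, Vegfd (ENSMUSG00000031380) at chrX:164373378-164402650, Angpt1 (ENSMUSG00000022309) at chr15:42424723-42676977 and Angpt2 (ENSMUSG00000031465) at chr8:18690263-18741562. The receptors Kdr (ENSMUSG00000062960) and Flt1 (ENSMUSG00000029648) lie at chr5:75932827-75978458 and chr5:147561604-147726011, Flt4 (ENSMUSG00000020357) at chr11:49609263-49652739, and Tek (ENSMUSG00000006386) and Tie1 (ENSMUSG00000033191) at chr4:94739289-94874976 and chr4:118471191-118490061. Each count covers a whole gene, so splice forms, including soluble Flt1 and the lengths of VEGF-A, were not separated. Angpt2 overlaps Mcph1 and Angpt1 overlaps Gm17473, both on the opposite strand, and no other gene of the tables overlaps a member.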

How the data were processed

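The authors' deposited files hold UMI counts per gene and cell barcode, made with Cell Ranger 7.1.0 on mm10 from 10x 3' libraries tagged by CellPlex, split by mouse; the tag named in the labels was highest in 3495 of 3500 cells of 1 library and in every cell of the other 7. Cells with 200 to 7500 genes and at most 15% mitochondrial UMIs were kept (30860 of 32121), and Scrublet, run per pool in scanpy 1.11.5 (Python 3.11.15), removed 139 whole-cell and 638 mural-enriched cells as doublets. UMIs were summed per mouse and population. Differences were tested in R 4.3.3 with edgeR 4.0.16 (quasi-likelihood, TMM, filterByExpr) across all genes with Benjamini-Hochberg adjustment. The mouse was a block within mice, and DESeq2 1.42.0 was an alternative. Between genotypes, p-values measure the spread between 2 mice a genotype. Within mice, they measure the spread of the subset difference over 4 mice. edgeR moderates the spread of each gene by that of all genes. In all fits the p-values rest in part on the latter, and in the Prox1, Higd1b and Cthrc1 subsets almost wholly. The edgeR fits of genotype in endothelial cells and fibroblasts, Ednrb against Gpihbp1 cells and genotype by lineage were tested on simulated data. The other fits were not. The members, the gene lists and the naming rule (all members, the 3 pathway genes with the largest called rise and fall between genotypes and between capillary subsets, and the 3 genes most like each member) were chosen with earlier results of these data known. Differences on the log2 scale are estimates ± SE.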

Additional observations from a re-analysis of the deposited data

How the results depend on the processing

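Numbers of members called between genotypes were 0 in each lineage and subset and moved as follows. With no filter on low counts they were 1 in endothelial, 2 in mural, 1 in epithelial and 1 in Gpihbp1 cells, and with DESeq2 1 in fibroblasts. Leaving out 1 mouse at a time gave 0 to 1 in endothelial, 0 to 2 in mural, 0 to 3 in fibroblast, 0 to 1 in epithelial and 0 to 2 in Ednrb cells, 0 to 1 for genotype by lineage and 0 to 2 for genotype by subset, and most of these calls came without WT replicate 1. The cause was not tested. Genes called in fibroblasts went from 0 to 540 with DESeq2 and to 1204 without WT replicate 1.

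Replicate numbers were entered as a block as well, which gave 3 members in fibroblasts (Vegfa, Vegfc and Angpt1, adjusted p = 0.0104, 0.00536 and 0.00926), 1 in epithelial cells (Vegfa, adjusted p = 0.0248) and 1661 genes in fibroblasts, and 0 members elsewhere. Deviations of same-numbered mice correlated at 0.02 to 0.32 over 2 pairs, and the labels tie the numbers to nothing shared, so they were not taken as pairs. Same-numbered mice were alike in their levels of Xist and Ddx3y.

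Within mice, the 2 calls by Ntrk2 fell to 0 with DESeq2 and to 0 with no block for the mouse, and were 1 to 2 without 1 mouse. The 2 calls between Higd1b and Myh11 cells became 5 under the gate of 80% of gate UMIs, which was chosen after seeing the data, and 1 to 3 without 1 mouse. The 5 calls between Pi16 and Npnt cells were 3 to 5 without 1 mouse.

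Signs turned in mural cells for Vegfc (-0.47) and Kdr (0.20) in the whole-cell libraries alone, and for Vegfd, which ranged from -0.33 to 0.014 when 1 mouse was left out. A gate of 2 UMIs left a mouse without Cthrc1 cells, so that comparison could not be fitted. Depth limits the Prox1, Higd1b and Cthrc1 subsets most, where a member often rested on fewer than 10 UMIs a mouse.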

Other observations

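The populations described here were chosen after their values were seen and carry no test. Among immune cells, those with Marco, a gene of alveolar macrophages, held Flt1 at 157, 155, 136 and 142 CPM, and those without it at 47.0, 67.2, 45.5 and 50.5 CPM, in the order WT 1, WT 2, Tubb3-/- 1, Tubb3-/- 2. The groups did not overlap, and the Marco cells held 19401 to 24809 UMIs each against 8958 to 10678.

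Cells with Upk3b, a mesothelial gene, held Kdr outside the endothelium. Among cells of no gate, Kdr was at 298, 334, 197 and 180 CPM with Upk3b and at 4.32, 12.9, 5.13 and 8.20 CPM without it. Among mural cells it was at 165, 215, 111 and 127 CPM with Upk3b and at 2.57, 4.08, 2.42 and 1.99 CPM without it, while the 3 mesothelial markers, of which Upk3b is 1, summed to 2138 to 3338 CPM with it and 14.6 to 16.3 CPM without it.

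Among Cdh5 cells, Vegfc was at 511, 539, 368 and 431 CPM in those with Slc6a2, a gene of pulmonary venous endothelium, and at 56.4, 67.3, 58.2 and 56.4 CPM in those with Gja5, a gene of arterial endothelium. Vegfa lay the other way, at 70.2, 95.7, 119.8 and 72.8 CPM with Slc6a2 and at 295, 384, 333 and 341 CPM with Gja5, and neither pair of ranges overlapped.

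Angpt1 was higher in replicate 2 than in replicate 1 of the same genotype in mural cells and in fibroblasts. Xist also differed between these replicates, and sex and mouse cannot be told apart.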
